A study of Mus musculus with 12 samples.

Results

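Complement components and receptors were followed in mouse macrophages and osteoclasts with and without lipopolysaccharide (LPS), the outer-membrane component of Gram-negative bacteria. The set held 8 genes, C1qa, C1qb, C1qc, C3, Cfb, Cfp, C3ar1 and C5ar1, each matched by its symbol to 1 Ensembl gene among the 54532 of the deposited expression table. All 4 groups came from marrow cells of wild-type mice grown with CMG, a source of the macrophage growth factor M-CSF, and each group held 3 libraries. Untreated macrophages received no RANKL and no LPS. LPS-treated macrophages received 100 ng/mL LPS for 3 h on day 5. Untreated osteoclasts were obtained with RANKL, the cytokine that drives osteoclast formation, given in the sample source as 100 ng/mL. LPS-treated osteoclasts received RANKL and the same LPS dose for the same 3 h. The labels do not say whether replicates came from separate mice or cultures, so p-values measure the spread between these libraries, which may be technical.

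Complement is a cascade of plasma and locally made proteins that tags targets and recruits phagocytes. C1q, built from the chains of C1qa, C1qb and C1qc, starts the classical pathway by binding antibody complexes and cell debris, and macrophages are known for making it. C3 is the protein on which all routes converge, factor B (Cfb) and properdin (Cfp) build and stabilise the alternative-pathway convertase that cleaves it, and C3ar1 and C5ar1 are receptors for the small fragments C3a and C5a.

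Values were FPKM, fragments per kilobase of gene scaled to a denominator for each library. The denominators followed the typical gene and not the read total, so a change is relative to the typical gene. Reads assigned to genes lay between 15651770 and 20281456 per library. A gene was tested where it reached 1 FPKM in at least 3 of the 12 libraries, which held for 11335 genes and for 7 of the 8 members. Cfb fell under this limit. Differences were taken between means of log2(FPKM + 1), a scale that compresses changes at low FPKM. A gene was called at an adjusted p under 0.05 (limma, Benjamini-Hochberg over all genes tested).

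Markers separated the cell types as labelled. The summed FPKM of 8 osteoclast markers was 29579 to 31023 in untreated osteoclasts and 8.26 to 12.2 in untreated macrophages. All 8 macrophage markers were above 0. Cx3cr1, Mrc1 and Fcgr1 in untreated osteoclasts stood at 0.342%, 0.877% and 0.952% of their macrophage mean, Adgre1 at 7.74%, Mertk at 9.22%, Cd14 at 14.9%, Csf1r at 70.4% and Cd68 at 209%. Sums of stromal markers (7 genes) were 26.3 to 37.0 FPKM in untreated macrophages, 29.6 to 36.2 with LPS and at most 0.977 in osteoclasts. Among them Col1a1 was detected while Dcn and Lum were at 0 in all macrophage libraries. Sums of 7 neutrophil markers were 4.46 to 6.64 FPKM in untreated macrophages, 5.54 to 12.7 with LPS and at most 1.76 in osteoclasts. Sums of 5 dendritic cell markers were 0.273 to 0.293 FPKM in untreated macrophages and 5.26 to 6.02 with LPS, of which Xcr1 made up 0.15 and 5.31 on average, and at most 1.71 in osteoclasts. The part of other cells in the results below was not tested. In bulk RNA, fewer cells of a type and less RNA per cell cannot be told apart.

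The 3 C1q chains were the most abundant members in macrophages, and each was 27.0 to 32.2 times lower in osteoclasts. C1qa (ENSMUSG00000036887, GRCm38 chr4:136895917-136898803, minus strand) encodes the A chain. Its FPKM in untreated macrophages was 1112, 1160 and 1073, and in untreated osteoclasts 35.8, 32.7 and 35.5. With LPS it was 1278, 1331 and 1341 in macrophages and 46.3, 32.6 and 49.4 in osteoclasts. Every macrophage library was far above every osteoclast library, and the osteoclast groups overlapped.

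C1qb (ENSMUSG00000036905, chr4:136880129-136886187, minus strand) encodes the B chain and had the highest FPKM of the members in all 3 macrophage libraries of each group. It measured 1618, 1734 and 1644 FPKM in untreated macrophages and 2129, 2166 and 2262 with LPS. Osteoclasts gave 67.8, 57.9 and 59.5 FPKM untreated and 87.9, 51.0 and 82.7 with LPS. C1qc (ENSMUSG00000036896, chr4:136889804-136893065, minus strand), the C chain, showed the same order of groups, with means of 646 ± 24.5 and 803 ± 19.7 in macrophages and 23.4 ± 1.72 and 26.4 ± 7.20 in osteoclasts (FPKM, untreated then LPS, SD, n = 3). The low LPS-treated osteoclast library was replicate 2 for all 3 chains.

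Without LPS, the osteoclast difference was -4.97 for C1qa (SE 0.12, adjusted p 2.52e-12), -4.73 for C1qb (SE 0.16, adjusted p 4.39e-11) and -4.73 for C1qc (SE 0.15, adjusted p 2.82e-11). Osteoclasts thus held 3.11% of the macrophage C1qa level, 3.71% of C1qb and 3.62% of C1qc. With LPS on both sides the chains were 30.8, 29.6 and 30.4 times lower in osteoclasts. These differences kept their direction and call in every alternative run. They are larger than the drops in Adgre1, Mertk, Cd14 and Csf1r, and smaller than those in Cx3cr1, Mrc1 and Fcgr1. The macrophage marker Cd68 was higher in osteoclasts.

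The 3 genes lie next to each other on chromosome 4 in the order C1qb, C1qc, C1qa, over 18675 bases, with gaps of 3616 and 2851 bases. The neighbouring protein-coding genes did not share their level. Ephb2, a receptor tyrosine kinase gene on one side, reached at most 0.0753 FPKM, and Epha8 on the other at most 0.0116 FPKM.

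**Figure D1:**
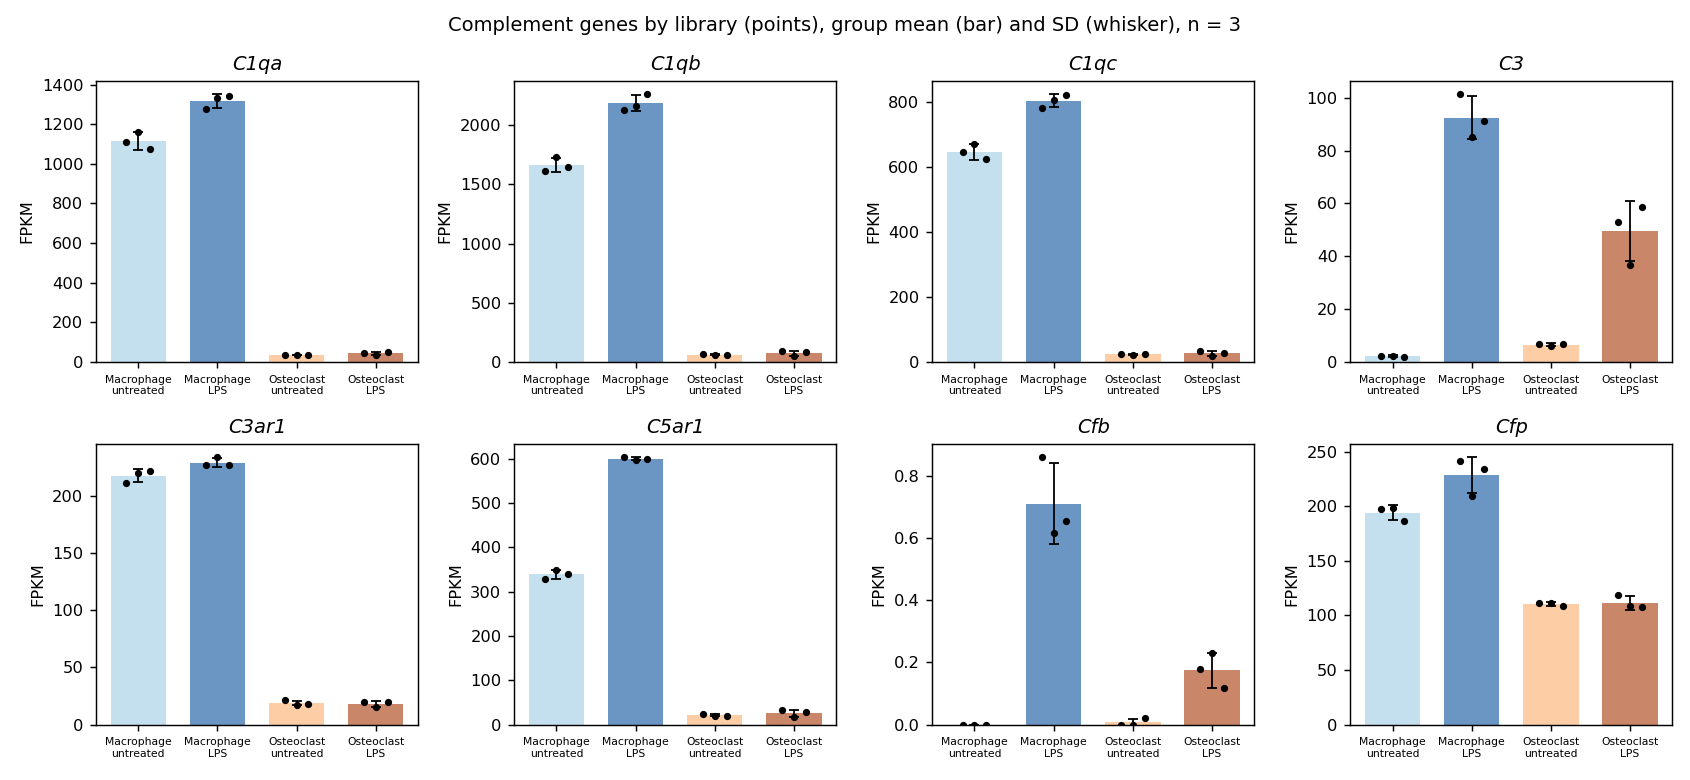
FPKM of the 8 complement members (1 panel each, linear axes that start at 0) in untreated and LPS-treated macrophages and osteoclasts. Bars are means, points are libraries and whiskers are SD (n = 3). C1qa, C1qb, C1qc, C3ar1 and C5ar1 sit low in both osteoclast groups. C3 and Cfb are higher in the LPS groups than in the untreated ones, with Cfb under 1 FPKM in all libraries. Cfp has a shallower step between cell types than the C1q chains and the receptors.

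Whether LPS raised or lowered C1q in macrophages depended on the scaling. In FPKM, all LPS-treated macrophage libraries were above all untreated ones for each chain. The libraries did not overlap, in either direction, for 74.0% of all genes tested. C1qb was called higher (0.39, SE 0.16, adjusted p 0.0405), a call that held in 5 of 12 fits with a library left out and was lost with no filter on low genes, and its difference was -0.26 in TPM (values made to sum to the same total in each library) not called, and -0.69 with quantile-normalized values, called lower. C1qa (0.24, SE 0.12, adjusted p 0.0857) and C1qc (0.31, SE 0.15, adjusted p 0.0785) were not called. Both were called lower in TPM (-0.41 and -0.33) and with quantiles (-0.99 and -0.77). Both were called higher when only the macrophage groups were fitted, with voom on recovered reads, and without LPS-treated osteoclast replicate 2. In RPM, which scales reads to the library's total of assigned reads, the 3 chains together were at 5250 ± 155 untreated and 4257 ± 115 with LPS, with no overlap (SD, n = 3). The rescaling to TPM moved the median of all genes in this comparison to -0.55, so C1qa, C1qb and C1qc stood above the typical gene there too. With quantiles that median was -0.14, and all 3 chains stood below it.

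Ratios between chains are the same in FPKM, TPM and RPM up to fixed gene lengths, since those differ by 1 factor per library, but not after quantile normalization. C1qb over C1qa was 1.49 ± 0.038 in untreated macrophages, 1.66 ± 0.030 with LPS, 1.78 ± 0.11 in untreated osteoclasts and 1.71 ± 0.17 in LPS-treated osteoclasts (SD, n = 3). C1qc over C1qa was 0.580 ± 0.00099, 0.610 ± 0.0031, 0.675 ± 0.027 and 0.614 ± 0.077 in the same order. In macrophages both ratios were higher with LPS in every library (exact permutation test, two-sided p 0.10, adjusted 0.178 over 16 comparisons of ratios). With 3 libraries against 3, 0.10 is the smallest p that this test allows.

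Promoters are shown for C1qb, lower in osteoclasts, for C3, higher with LPS in both cell types, and for Cfp, the least lowered in untreated osteoclasts. Each is the 250 bases before the RefSeq start on GRCm38.p6, 5′ to 3′ on the minus strand, and capitals mark a match to any motif searched. C1qb is chr4:136886201-136886450, C3 is chr17:57228137-57228386 and Cfp is chrX:20931556-20931805.
C1qb: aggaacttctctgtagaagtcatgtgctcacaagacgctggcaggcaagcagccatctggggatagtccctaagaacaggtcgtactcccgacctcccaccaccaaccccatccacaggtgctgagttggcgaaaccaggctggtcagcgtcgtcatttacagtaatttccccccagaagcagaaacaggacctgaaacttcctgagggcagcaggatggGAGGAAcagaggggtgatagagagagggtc
C3: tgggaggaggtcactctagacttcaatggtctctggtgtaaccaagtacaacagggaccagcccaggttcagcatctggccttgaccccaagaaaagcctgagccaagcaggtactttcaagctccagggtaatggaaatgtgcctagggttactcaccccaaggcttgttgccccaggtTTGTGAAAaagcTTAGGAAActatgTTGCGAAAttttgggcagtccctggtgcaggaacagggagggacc
Cfp: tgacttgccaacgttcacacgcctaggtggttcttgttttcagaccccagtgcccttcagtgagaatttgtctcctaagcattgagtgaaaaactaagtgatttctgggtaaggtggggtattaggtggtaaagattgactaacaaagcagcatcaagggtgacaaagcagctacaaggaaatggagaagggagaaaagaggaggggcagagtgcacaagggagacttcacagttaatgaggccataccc
In C1qb, GAGGAA, the core letters of sites for PU.1 and related ETS factors, lies 30 to 25 bases before the start. In C3, TTNNGNAA, a loose form of the C/EBP site, occurs at 70 to 63, 58 to 51 and 45 to 38 bases before the start. Cfp held no searched motif in these 250 bases, and held GAGGAA on the opposite strand just past its start, within the longer window searched. GAGGAA was found in 28.3% of 32851 RefSeq promoters of 250 bases before to 50 after the start, and TTNNGNAA in 40.7%, on either strand. The other motifs searched were the kappa-B consensus (8.46% of promoters), TTCNNNGAA (8.3%), the interferon-stimulated response element (3.44%), TGANTCA (7.81%) and CACGTG (7.15%). Other members also held matches: C1qc the kappa-B consensus, GAGGAA and TTNNGNAA, C3ar1 TGANTCA, and C5ar1 TTNNGNAA. TTNNGNAA was added after the sequences were seen. A match is a description of letters and not a bound site.

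C3, the central component, had the largest LPS difference of the 7 tested members in both cell types. C3 (ENSMUSG00000024164, chr17:57203970-57228136, minus strand) measured 2.31, 2.40 and 1.96 FPKM in untreated macrophages and 101.3, 85.2 and 91.0 with LPS. In osteoclasts it measured 6.92, 6.03 and 6.77 FPKM untreated and 53.0, 36.7 and 58.7 with LPS. The order was LPS-treated macrophages, LPS-treated osteoclasts, untreated osteoclasts and untreated macrophages, and no neighbouring groups overlapped.

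C3 mean FPKM was 41.6 times higher with LPS in macrophages (log2 difference 4.86, SE 0.14, adjusted p 1.86e-11) and 7.52 times higher in osteoclasts (2.71, SE 0.14, adjusted p 6.14e-08). Without LPS, C3 was 2.96 times higher in osteoclasts than in macrophages (1.23, SE 0.14, adjusted p 4.52e-06), unlike the other 6 tested members. With LPS it was 1.87 times lower in osteoclasts (-0.91, SE 0.14, adjusted p 5.60e-05). The LPS effect in osteoclasts was smaller than that in macrophages by a test of the difference itself (-2.15, SE 0.20, adjusted p 1.78e-06). All 5 C3 results kept direction and call in every alternative.

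Cfb (ENSMUSG00000090231, chr17:34856374-34862518, minus strand), the protease subunit of the alternative convertase, was detected almost only in LPS-treated libraries. It was at 0 reads in all untreated macrophage libraries and at 31, 26 and 26 reads with LPS, or 0.860, 0.617 and 0.655 FPKM. Osteoclasts gave 0, 0 and 1 reads untreated and 10, 10 and 6 with LPS, or 0.179, 0.230 and 0.116 FPKM. Against a floor of 3 reads per library, Cfb was at least 15.4 times higher with LPS in macrophages and at least 2.87 times higher in osteoclasts. Floors cover counting error only. With no filter on low genes, the only setting that tested Cfb, limma called it higher with LPS in both (adjusted p 7.18e-07 and 0.0345). In that limma fit it was lower in osteoclasts with LPS (-0.54, adjusted p 7.10e-06). The difference between the LPS effects was called too (-0.55, adjusted p 0.000249), on a scale that compresses changes at such low FPKM. Cfb values are uncertain, because Gm20547 on the same strand covers 2246 of its 2825 exon bases and reads that fit both may be left uncounted. Gm20547 itself had 0 reads in all libraries.

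Cfp (ENSMUSG00000001128, chrX:20925454-20931555, minus strand), the convertase-stabilising properdin, was lower in osteoclasts by less than the C1q chains and receptors. It measured 197, 198 and 187 FPKM in untreated macrophages and 112, 111 and 108 in untreated osteoclasts. With LPS it measured 242, 209.6 and 234 FPKM in macrophages and 118, 108 and 107 in osteoclasts. Untreated osteoclasts held 56.8% of the macrophage mean (-0.81, SE 0.06, adjusted p 4.11e-08), the highest share among the 6 members that were lower. The share was 48.8% with LPS (-1.03), and in TPM 42.5% untreated and 54.5% with LPS. Cfp was 1.18 times higher with LPS in macrophages (0.23, SE 0.06, adjusted p 0.00276), but was called lower in TPM (-0.42) and with quantiles (-0.64). In osteoclasts its LPS difference was 0.01 (adjusted p 0.903) and the groups overlapped.

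**Figure D2:**
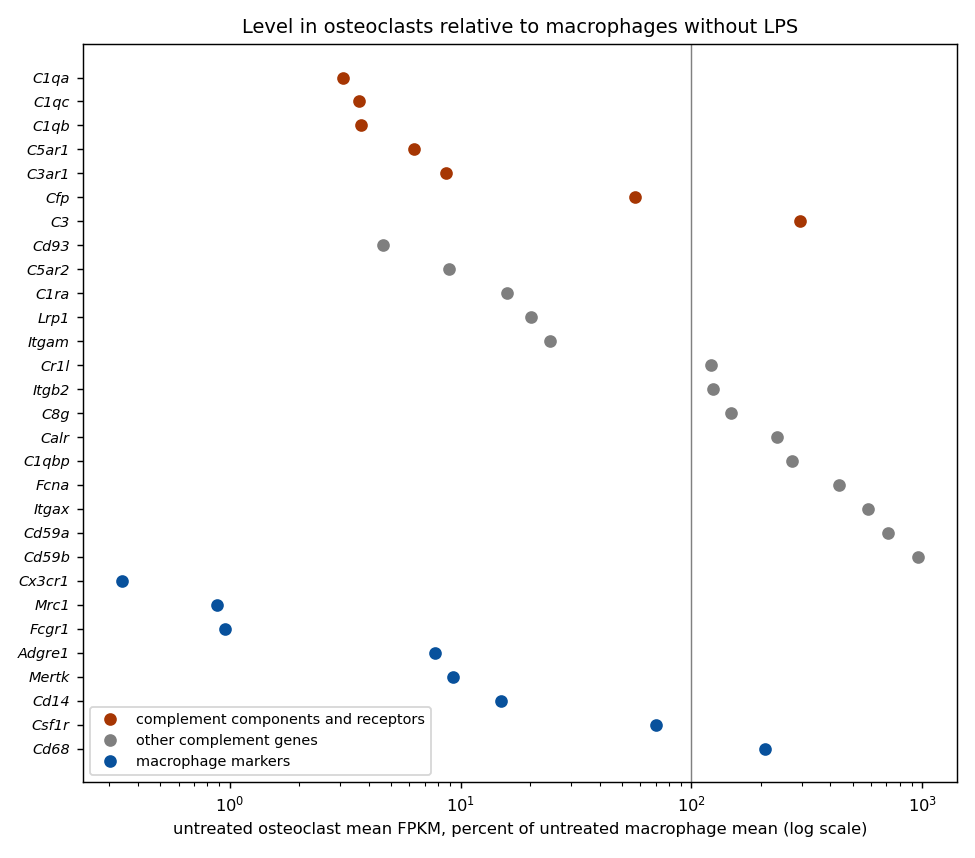
Mean FPKM in untreated osteoclasts as a percentage of that in untreated macrophages, on a log axis, with complement members, other complement genes and macrophage markers in separate blocks. C1qa, C1qb and C1qc lie at 3.11% to 3.71%, Cfp at 56.8% and C3 above 100%.

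Both anaphylatoxin receptors were lower in osteoclasts, and in macrophages C5ar1 was called higher with LPS while C3ar1 was not. C3ar1 (ENSMUSG00000040552, chr6:122847138-122856161, minus strand), the C3a receptor, measured 212, 219.7 and 222 FPKM in untreated macrophages and 227, 234 and 227 with LPS. In osteoclasts it measured 21.1, 17.1 and 18.2 FPKM untreated and 19.3, 15.4 and 19.5 with LPS. The macrophage groups were close without overlapping, and the osteoclast groups overlapped.

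C5ar1 (ENSMUSG00000049130, chr7:16246743-16259540, minus strand), the main C5a receptor, measured 329, 349 and 341 FPKM in untreated macrophages and 604, 598 and 599 with LPS. In osteoclasts it measured 24.4, 20.1 and 19.1 FPKM untreated and 32.8, 17.3 and 28.0 with LPS. The LPS-treated macrophages were tightly grouped above the untreated ones, while the LPS-treated osteoclasts spanned the untreated range.

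Untreated osteoclasts held 8.63% of the macrophage C3ar1 mean (-3.47, SE 0.09, adjusted p 4.23e-12) and 6.25% of C5ar1 (-3.94, SE 0.17, adjusted p 5.38e-10). C5ar1 was 1.77 times higher with LPS in macrophages (0.82, SE 0.17, adjusted p 0.00101), a difference of 0.17 that was not called in TPM and -0.02 after quantile normalization. C3ar1 differed by 0.07 (SE 0.09, adjusted p 0.472) in FPKM, and was called lower in TPM (-0.57) and with quantiles (-0.77). The ratio of C5ar1 to C3ar1, the same in FPKM and TPM, was 1.56 ± 0.027 in untreated macrophages and 2.62 ± 0.056 with LPS (SD, n = 3). Every treated library was above every untreated one in that ratio (exact permutation test, two-sided p 0.10, the smallest possible, adjusted 0.178). In osteoclasts the ratio was 1.13 ± 0.068 untreated and 1.42 ± 0.28 with LPS (SD, n = 3, exact permutation p 0.30).

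**Figure D3:**
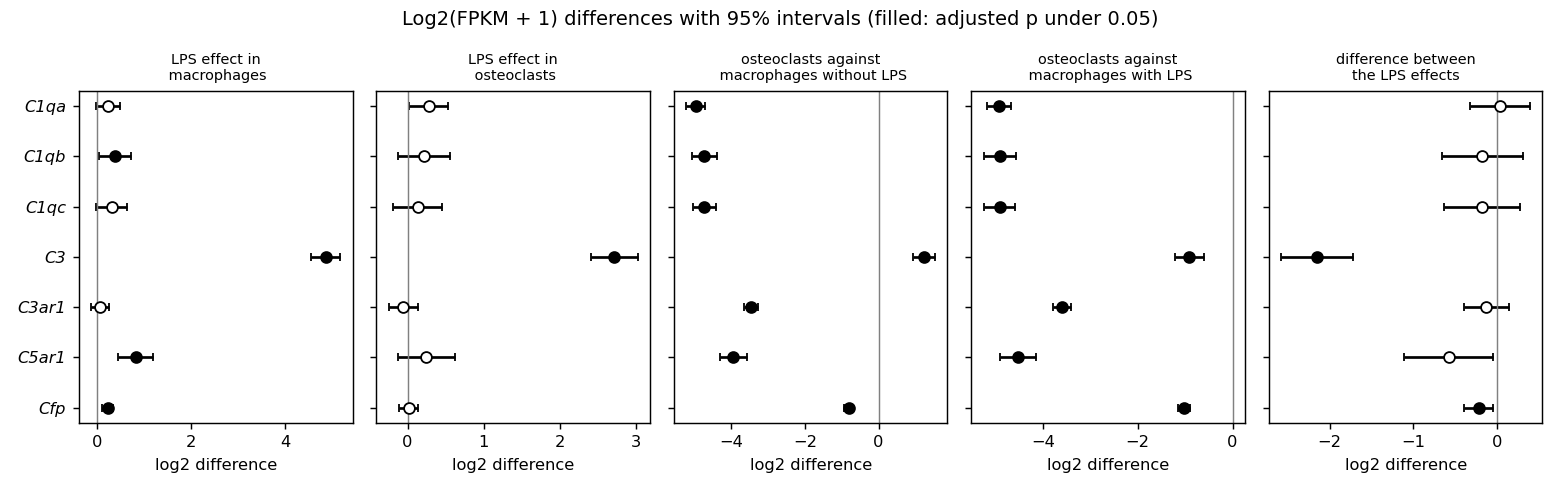
Differences in log2(FPKM + 1) for the 7 tested members in each comparison, with points for the estimates (filled where the adjusted p is under 0.05) and bars for 95% intervals of the limma fit. C3 has the largest LPS differences (4.86 in macrophages and 2.71 in osteoclasts), and the C1q chains and receptors lie at -3.47 or lower where osteoclasts are set against macrophages, with Cfp at -0.81 and -1.03.

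Counted over members, LPS in macrophages gave 4 called higher (C1qb, C3, C5ar1 and Cfp), none lower and 3 not called, where 36.8% of all genes tested were called higher, 33.1% lower and 69.9% in either direction. In TPM, 1 member was called higher and 4 lower, and after quantile normalization 1 and 5. Of all 11335 genes tested, 9730 were called in TPM (18.5% of the calls higher) and 8244 with quantiles (37.0%). With only the groups compared, with voom, or without LPS-treated osteoclast replicate 2, 6 members were called higher. With voom 7948 genes were called (53.2% higher), and counts over all genes in the other settings of these are not given here. In FPKM the members' median difference was 0.31 against 0.02 over all genes. In osteoclasts LPS gave 1 called higher (C3) and 6 not called, where 17.7% of all genes were called, 11.1% higher and 6.59% lower. C3 was also the only tested member whose osteoclast groups did not overlap, against 34.0% of all genes. Medians there were 0.22 for members and 0.01 for all genes. Without LPS, 6 members were called lower in osteoclasts and C3 higher, where 39.0% of all genes were called lower, 38.8% higher and 77.8% in either direction. For all 7 the groups did not overlap, against 81.4% of all genes. With LPS all 7 were called lower, where 43.0% of all genes were called lower, 40.9% higher and 83.9% in either direction, and again no member overlapped, against 83.6% of all genes without overlap. Member medians were -3.94 and -4.52, against 0.00 and -0.02 over all genes.

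**Figure D4:**
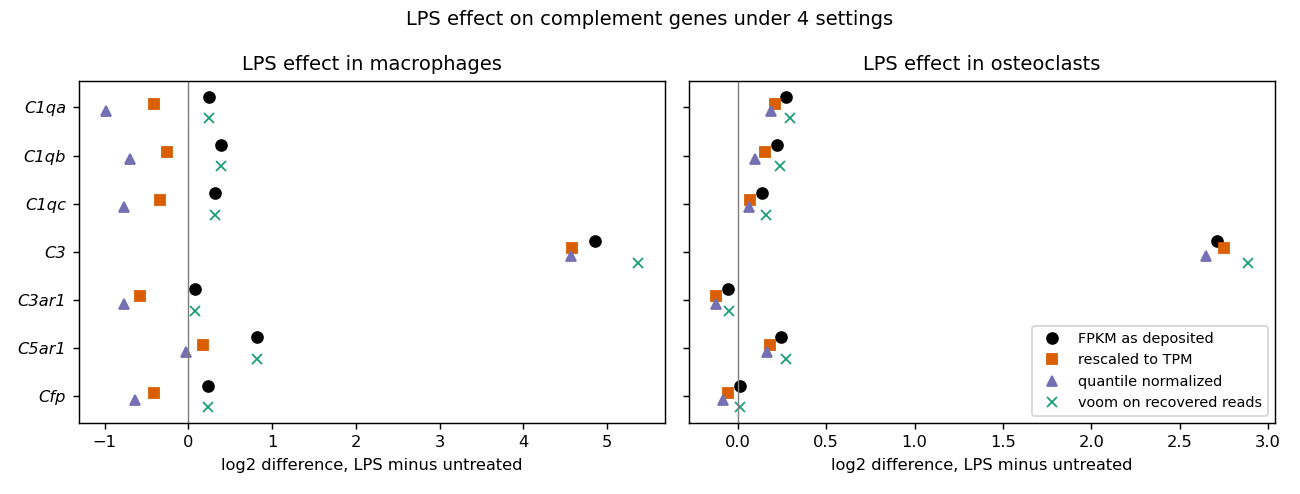
LPS differences on the log2 scale for the 7 tested members under 4 settings, macrophages on the left and osteoclasts on the right, with a point for each setting. In macrophages C3 stays at 4.57 to 4.86 in FPKM, TPM and quantile-normalized values, whereas C1qa, C1qb, C1qc, C3ar1 and Cfp change sign between FPKM and TPM.

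The test of the difference between the LPS effects called C3 (-2.15) and Cfp (-0.22, SE 0.08, adjusted p 0.0330), 2 of 7 members, where 30.0% of all genes were called lower, 26.6% higher and 56.6% in either direction. The Cfp call was lost in 7 of 12 fits with a library left out, and it was called in the opposite direction in TPM (0.36) and with quantiles (0.56). Medians were -0.18 for members and -0.01 for all genes. C5ar1 gave -0.58 (95% interval -1.11 to -0.05, adjusted p 0.0610) and 0.01 in TPM. It was called with voom on recovered reads (-0.55), which called 3 members and 6094 of 11335 genes. It was also called without LPS-treated osteoclast replicate 1 (-0.76) or 2 (-0.32). For C1qa the interval was -0.33 to 0.40, for C1qb -0.65 to 0.31, for C1qc -0.64 to 0.28 and for C3ar1 -0.40 to 0.14, so moderate differences in either direction remain possible for them. Values above these intervals, called higher, were found in TPM for C1qa (0.62) and C3ar1 (0.45), and with quantiles for C1qa (1.18), C1qb (0.79), C1qc (0.84) and C3ar1 (0.65). C1qa was also called without LPS-treated osteoclast replicate 2 (0.22).

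The LPS-treated osteoclast libraries differed among themselves. Relative to the untreated osteoclast mean, replicates 1, 2 and 3 stood at 1.34, 0.940 and 1.43 for C1qa, at 1.43, 0.826 and 1.34 for C1qb and at 1.39, 0.791 and 1.20 for C1qc. C5ar1 stood at 1.55, 0.817 and 1.32, and C3 at 8.06, 5.58 and 8.93. Replicate 2 was the lowest in each of these genes. Of the 8 macrophage markers, 6 were also lowest in replicate 2. Adgre1 was 42.5 FPKM in replicate 2 against 73.1 and 70.9, Mrc1 1.62 against 3.35 and 3.41, and Cx3cr1 0.130 against 0.348 and 0.292. The abundant Csf1r and Cd68 were highest in replicate 2, at 303.5 and 1446 FPKM, against 285.9 and 1351 in replicate 1 and 289 and 1325 in replicate 3. The summed osteoclast markers were also highest there, at 31979 FPKM against 29730 and 28984. The summed macrophage markers stood at 1.00, 1.04 and 0.985 of the untreated mean in replicates 1, 2 and 3, highest in replicate 2. Without replicate 2, 5 members were called higher with LPS in osteoclasts in place of 1: C1qa (0.46), C1qb (0.46), C1qc (0.36), C3 (2.91) and C5ar1 (0.50). Replicate 2 was the lowest library for these 5 genes, so leaving it out raises their differences by itself. The count over all genes in that fit is not given here, so the rise cannot be set against it. The part of residual macrophages in these values was not tested.

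**Figure D5:**
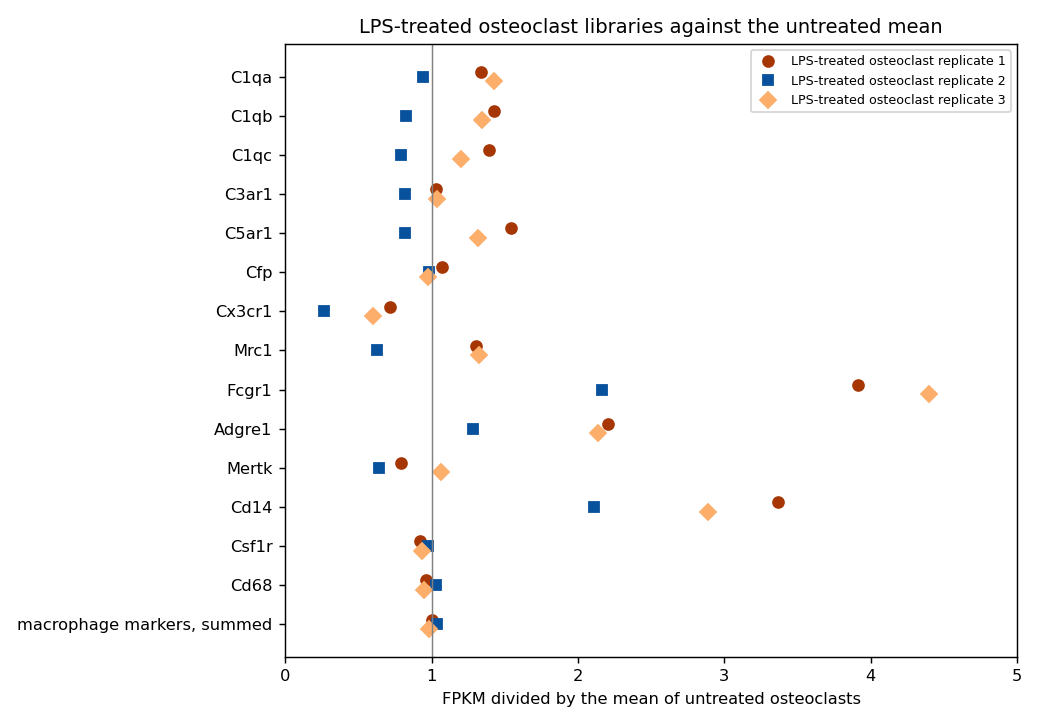
FPKM of each LPS-treated osteoclast library divided by the mean of untreated osteoclasts, for 6 members (C3 and Cfb are left out) and for the 8 macrophage markers and their sum. The vertical line at 1 is the untreated mean. Replicate 2 lies below the others for C1qa, C1qb, C1qc, C3ar1, C5ar1 and 6 of the 8 markers, and not for Cfp, Csf1r, Cd68 or the marker sum.

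Other complement genes, 42 chosen by function, were mostly low. In all libraries 28 of them stayed under 1 FPKM, including 8 at 0 throughout, and 14 were tested. These were 2 of 15 initiation and convertase genes (C1ra and Fcna), 1 of 7 terminal components (C8g), 3 of 11 regulators and 8 of 9 receptors. Without LPS, 8 were called higher in osteoclasts, 5 lower and 1 (C8g, 0.29) not, where 38.8% of all genes were called higher, 39.0% lower and 77.8% in either direction. Of the 8, Cr1l was called lower in TPM and Itgb2 was not called there. The median of the 14 in FPKM was 0.30 against 0.00 over all genes.

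Among regulators, Cd59a, a membrane inhibitor of the attack complex, averaged 6.87 FPKM in untreated macrophages and 48.8 in untreated osteoclasts, a 7.11-fold rise (2.66). Cd59b, its paralog, differed by 1.27, from 0.199 to 1.91 FPKM. Cr1l, the remaining tested regulator, was called higher in osteoclasts in FPKM (0.235) and lower in TPM (-0.13). With LPS it was called lower in FPKM (-0.24) and not called in TPM (-0.11). Among receptors, Cd93 (-4.21, 4.59% of the macrophage level), C5ar2, the second C5a receptor (-1.90), Lrp1 (-2.28) and Itgam, the alpha chain of complement receptor 3 (-1.94), were lower in osteoclasts. Itgax, the alpha chain of complement receptor 4 (1.91), C1qbp (1.41) and Calr (1.23) were higher. Itgb2, the beta chain both integrins share, was higher in FPKM (0.31) but -0.10 in TPM. Itgam shares 68.7% of its exon bases with Gm49368, so its values are uncertain. Fcna, a ficolin that starts the lectin pathway, was also higher in osteoclasts (1.97). It shares 90 of its 1374 exon bases (6.6%) with Fcnaos on the opposite strand, which had 12 reads over all libraries. Reads in those bases may be left uncounted, as may those in the 3.6% of C5ar2 exon bases shared with Gm26473 on the same strand.

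With LPS in macrophages, 5 of the 14 were called higher, 2 lower and 7 not, with a median of 0.01, where 36.8% of all genes were called higher and 33.1% lower. Over all genes 69.9% were called in either direction, and a difference between the list and that share was not tested. C1ra, the protease that C1q activates, averaged 0.637 FPKM untreated and 4.09 with LPS, a 6.42-fold rise (1.63). C5ar2 fell from 4.10 to 1.46 FPKM (-1.05), opposite to C5ar1 in FPKM. Cr1l (0.60) rose in FPKM but was at 0.05 and not called in TPM, and Lrp1 (-0.28) fell, a call lost without untreated macrophage replicate 1 (-0.23) or LPS-treated macrophage replicate 3 (-0.23). Itgam (0.29), Calr (0.42) and Itgb2 (0.10) were called higher in FPKM, and were called lower in TPM at -0.35, -0.22 and -0.54. The FPKM call of Itgb2 was also lost with no filter, with no variance trend and without untreated macrophage replicate 1 or 3 or LPS-treated macrophage replicate 1 or 2. In osteoclasts, C5ar2 (-0.37) and Cd93 (-0.47) fell with LPS and 12 were not called, where 6.59% of all genes were called lower, with a median of -0.07 against 0.01 over all genes.

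Genes most like each member were named by the Pearson correlation of log2(FPKM + 1) over the 12 libraries, which all fall in 4 groups and share their denominators. Man1a, a Golgi mannosidase gene, was nearest to C1qa (r 0.999), and also led for C1qb and C1qc (r 1.00 for both). Next were Sdc3 for C1qa, Dock2 for C1qb and Selenop for C1qc. Siglec1, a sialic acid-binding macrophage receptor, was nearest to C3ar1, followed by Colec12. Ms4a7 and Dtnbp1 were nearest to C5ar1. Il17ra and Laptm4a were nearest to Cfp (r 0.996 for both). C3 stood apart, with Fam49a (r 0.995) and Adamts4, an aggrecan-cleaving protease gene (r 0.991). C3 correlated with the other tested members at -0.03 to 0.12, while those 6 correlated with each other at 0.978 to 1.00.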

How the data were processed

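RNA was sequenced in 12 libraries, in 4 groups of 3, as the sample titles give them. The authors deposited FPKM values for 54532 genes, and the submitters' processing notes list fastp, STAR, featureCounts, DESeq2 and mm10 with no versions or roles. Whole reads were recovered from the FPKM steps: at the merged exon lengths of GENCODE M21, 96.8% of the 25854 genes above 0 gave whole reads in all libraries (tolerance 0.02). The FPKM denominators recovered from the deposited values were proportional to median-of-ratios size factors, which no label states. Whether counting used strand is not given in the sources used here.

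A linear model with 1 mean for each of the 4 groups was fitted to log2(FPKM + 1) of the 12 libraries with limma 3.58.1 (R 4.3.3, eBayes with trend), and 5 contrasts were taken. Tests were two-sided. The steps were tested on simulated data. The members, gene lists and tests were chosen with earlier results of these data known. Named genes were all members, tested genes of the complement list (1 gene of it is not reported here), and the 2 most correlated genes per tested member. Symbols matched 54409 genes. RefSeq promoters matched 6 of 8 members, not C1qa and Cfb. Alternatives were a pseudocount of 0.1, no filter, TPM, quantile normalization, only the groups compared, the replicate block, no variance trend, limma's voom on recovered reads, and each library left out.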

Additional observations from a re-analysis of the deposited data

Results flagged for a closer look

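The LPS effects in osteoclasts and macrophages differed for 2 of 7 tested members and 7 of 14 other complement genes, where 56.6% of all genes were called, by the test of the difference itself (the osteoclast LPS effect minus the macrophage one, limma, on the log2(FPKM + 1) scale). C3 gave -2.15, with a rise in both cell types. Cfp gave -0.22, with values of 0.23 in macrophages and 0.01 in osteoclasts.

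Among the other complement genes, C1ra gave -1.35, Cr1l -0.48, Itgam -0.44, Itgb2 -0.15, Cd93 -0.44 and Calr -0.34. C5ar2 gave 0.68, the single positive value among these genes. Its fall was from 4.10 to 1.46 FPKM in macrophages and from 0.367 to 0.0559 in osteoclasts. Its difference was -0.14 with a pseudocount of 0.1 and -1.09 with voom on recovered reads, and was called in neither. C3 and C1ra kept their sign in every alternative, but C1ra was not called with voom (-0.94). In osteoclasts C1ra averaged 0.101 FPKM untreated (8, 6 and 2 reads) and 0.345 with LPS (26, 7 and 24 reads). That 3.40-fold rise read 0.28 on the log2(FPKM + 1) scale, which compresses changes at such low FPKM. The call of Calr was lost with no filter and in 8 of 12 fits with a library left out, that of Itgb2 with no filter, with no variance trend and in 6 of 12, and that of Cfp with no filter and in 7 of 12. In TPM and with quantiles Cfp (0.36 and 0.56) and Itgb2 (0.42 and 0.53) were called in the opposite direction, as were Calr (0.41) and Cd93 (0.40) with quantiles. The call of Itgam was lost in TPM (0.12) and with quantiles (0.11). Those of Cr1l (0.018), Cd93 (0.076) and Calr (0.24) were lost in TPM.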

How the results depend on the processing

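The scaling decided the sign of small LPS effects. Rescaling to TPM moved the median of all genes to -0.55 for LPS in macrophages, -0.38 for osteoclasts against macrophages without LPS, 0.12 with LPS and 0.51 for the difference between LPS effects, and quantile normalization moved the first to -0.14. The share of calls that were higher went from 52.6% to 18.5% in TPM and 37.0% with quantiles for LPS in macrophages, from 62.8% to 43.5% and 38.5% in osteoclasts, from 49.9% to 29.9% in TPM for untreated osteoclasts against macrophages, and from 47.0% to 82.0% and 59.9% for the difference between LPS effects.

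For LPS in macrophages, reversed values (TPM, then quantile) were -0.41 and -0.99 for C1qa, -0.26 and -0.69 for C1qb, -0.33 and -0.77 for C1qc, -0.57 and -0.77 for C3ar1, -0.42 and -0.64 for Cfp, -0.35 and -0.33 for Itgam, -0.54 and -0.74 for Itgb2 and -0.22 and -0.41 for Calr. C5ar1 was -0.024 with quantiles. For LPS in osteoclasts Cfp was -0.058 and -0.082. For untreated osteoclasts against macrophages, Cr1l was -0.13 in TPM, and Itgb2 was -0.10 and -0.030 (values in TPM and with quantiles). For the difference between LPS effects, values were 0.41 and 0.79 for C1qb, 0.40 and 0.84 for C1qc, 0.45 and 0.65 for C3ar1, 0.0052 and 0.19 for C5ar1, 0.36 and 0.56 for Cfp, 0.12 and 0.11 for Itgam, 0.42 and 0.53 for Itgb2, 0.076 and 0.40 for Cd93 and 0.24 and 0.41 for Calr. Cr1l was 0.018 in TPM. C5ar2 was -0.14 with a pseudocount of 0.1 and -1.09 with voom. The cause was not tested.

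The count of members called for the difference between LPS effects was 2, both lower, and was 4 in TPM (3 higher, 1 lower) and 6 with quantiles (5 higher, 1 lower). Of all 11335 genes tested, 6413 were called in FPKM, 8747 in TPM (82.0% of the calls higher) and 6824 with quantiles (59.9%). For LPS in osteoclasts the member count was 1, and 2 with no filter, which added Cfb to the genes tested and called 1641 of 25854 genes. Leaving out each library in turn gave 1 to 5 members for LPS in osteoclasts, 5 without LPS-treated osteoclast replicate 2, and 1 to 3 for the difference. Counts over all genes in those fits are not given here. Over those fits LPS in osteoclasts ranged from -0.030 to 0.36 for C1qc, -0.12 to 0.052 for C3ar1 and -0.032 to 0.037 for Cfp, and the difference from -0.078 to 0.22 for C1qa, -0.32 to 0.072 for C1qb and -0.34 to 0.049 for C1qc. Replicate numbers did not meet the rule for pairing (every correlation over 0.1): of 18 same-number pairs, 1 was over 0.1. A library correlated best with its own number in 5 of 6 comparisons within a cell type and 2 of 12 across. With the replicate block, the members called stayed at 4, 1, 7, 7 and 2 in the 5 contrasts.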
